A study of Mus musculus with 24 samples.

Results

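This section covers 8 genes that control the let-7 microRNA pathway or carry out microRNA processing: Lin28a, Lin28b, Trim71, Dis3l2, Drosha, Dgcr8, Dicer1 and Ago2. They were found by matching Ensembl gene identifiers to symbols in both expression tables, and all 8 were among the 29759 genes of each table and passed the filter on low values. RNA-seq was done on the E14 line of mouse embryonic stem cells in 2 states. Naive cells (nESC) were kept in serum-free N2B27 with LIF and 2i, which is the MEK inhibitor PD0325901 together with the GSK3 inhibitor CHIR99021. Epiblast-like cells (EpiLC) were nESC plated on gelatin in N2B27 with 20 ng/ml activin A and 12 ng/ml bFGF and collected on day 3. Each state was split into chromatin, nucleoplasm and cytoplasm RNA beside total RNA, which gave 8 groups of 3 libraries. E14 is 1 cell line, no allele or transgene is named in the labels, and nothing in the labels marks the 3 libraries of a group as separate cultures, so p-values measure the spread between libraries, which may be technical.

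In animals, the Microprocessor, built of the nuclease Drosha and the RNA-binding protein Dgcr8, cuts hairpins out of primary transcripts in the nucleus. Dicer1 trims the exported hairpin in the cytoplasm, and Argonaute proteins such as Ago2 carry the mature strand to its targets. Lin28a and Lin28b bind let-7 hairpins and block their maturation, terminal uridylyl transferases add a uridine tail to the blocked hairpin, and the exonuclease Dis3l2 degrades it. Trim71 (Lin41) is a ubiquitin ligase and RNA-binding repressor, and its message, like those of Lin28a and Lin28b, is a classic let-7 target. Mature let-7 RNAs were not analysed here, so what follows concerns the messages of their regulators.

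The sequences below show the let-7 seed, a motif of its hairpins and the sites that match the seed. The mature 5p strands of the let-7 family in RefSeq (GRCm38.p6) share 1 seed, bases 2 to 8, given in capitals, in 9 of 9 family members, while 11 of all 1679 mature mouse sequences in that table (0.66%) carry it. These 4 members differ outside the seed.
mmu-let-7a-5p: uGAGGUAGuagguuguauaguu
mmu-let-7e-5p: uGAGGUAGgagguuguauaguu
mmu-let-7g-5p: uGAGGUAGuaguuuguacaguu
mmu-miR-98-5p: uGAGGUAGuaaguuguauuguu

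The motif GGAG, the element that the zinc knuckles of Lin28 bind, was searched on the given strand between the mature arms of each hairpin. It was found in 8 of the 11 let-7 family hairpins with both arms annotated, in 44 of 633 other hairpins (7.0%), and in 7 of 50 others (14.0%) with a loop of the same range of 23 to 36 bases. It was missing in this stretch of Mirlet7b, Mir98 and Mirlet7c-2. The hairpin of Mirlet7g (chr9:106178840-106178927, + strand) holds the motif, in capitals, and that of Mirlet7b (chr15:85707319-85707403, + strand) is shown for contrast.
Mirlet7g: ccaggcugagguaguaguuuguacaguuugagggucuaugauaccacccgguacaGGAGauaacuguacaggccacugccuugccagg
Mirlet7b: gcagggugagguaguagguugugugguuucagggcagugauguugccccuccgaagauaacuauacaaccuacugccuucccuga

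The complement of the let-7 seed, CTACCTC, was searched on the sense strand of the 3′ UTR of 1 annotated transcript per gene (GENCODE M21, GRCm38). The 8-mer CTACCTCA, a subset of these matches, adds the base that pairs opposite position 1 of most let-7 strands. CTACCTC occurred 2 times in Lin28a, 4 times in Lin28b, 4 times in Trim71 and 3 times in Ago2. The 8-mer made up 2, 1, 4 and 1 of these matches, in the same order. Dis3l2, Drosha, Dgcr8 and Dicer1 had none in the searched UTRs of 347, 168, 1574 and 3851 bases. Among other UTRs of 0.8 to 1.25 times the same length, 14.5% held CTACCTC for Lin28a, 24.2% for Lin28b, 29.7% for Trim71 and 44.4% for Ago2, whose UTR of 11064 bases is the longest of the 8. These shares were 2.9% for Dis3l2, 0.8% for Drosha, 10.1% for Dgcr8 and 20.8% for Dicer1, so most UTRs of those lengths lack a match. One 30-base window per gene is shown 5′ to 3′ with the match in capitals, for Lin28a (chr4:134005182-134005211), Lin28b (chr10:45381015-45381044), Trim71 (chr9:114512465-114512494) and Ago2 (chr15:73097975-73098004), all on the − strand.
Lin28a: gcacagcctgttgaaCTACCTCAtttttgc
Lin28b: acccgggcgggaagtCTACCTCAtgcaagc
Trim71: aacattgcctaagtcCTACCTCAgcttaaa
Ago2: ttttacaatgtggatCTACCTCAgttaaac

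Values are FPKM as the authors deposited them, that is, fragments per kilobase of transcript on a library scale whose normalization is not stated. The FPKM of a library summed to between 432706 and 1980223 across the libraries. Recurring steps between low values put 1 FPKM in a 2 kb transcript at about 29.5 to 45.7 fragments in the chromatin libraries, 22.9 to 42.1 in cytoplasm, 60.5 to 79.8 in total RNA and 64.4 to 88.3 in nucleoplasm. Replicates correlated least in EpiLC chromatin (lowest Pearson r 0.959 across genes) and nESC chromatin (0.970). The EpiLC chromatin and cytoplasm libraries numbered 3 stood apart from their partners for several members, so results that change without them are given both ways. The nESC chromatin library numbered 3 was also the highest of its group for all 8 members, most of all for Lin28a and Lin28b. The summed FPKM of 10 naive markers in total RNA ran from 1116 to 1146 in nESC and from 37.9 to 42.2 in EpiLC, and that of 9 formative markers from 40.3 to 42.5 and from 1208 to 1249, in keeping with the labels. Summed levels of 8 fibroblast and feeder markers in total RNA were 0.589 to 12.4 in nESC and 14.7 to 21.4 in EpiLC, and the part of such cells in the differences between the states was not tested. In chromatin, nucleoplasm and cytoplasm these sums ran from 1.09 to 5.66 over the nESC libraries and from 9.54 to 29.8 over the EpiLC libraries. Fewer cells of a type and less RNA per cell cannot be told apart in bulk samples.

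Lin28a and Lin28b, paralogous inhibitors of let-7 maturation, were both far higher in EpiLC. As deposited, Lin28a had its higher FPKM in cytoplasm and Lin28b in the nuclear fractions. FPKM compare levels within each fraction's library and do not show where most copies of a message lie. Lin28a (ENSMUSG00000050966, chr4:134003330-134018841, − strand) stood at 27.5, 31.2 and 28.3 FPKM in the nESC total libraries and at 127, 130 and 136 FPKM in the EpiLC ones. In nESC cytoplasm it was at 29.8, 27.7 and 29.0 FPKM against 4.68, 3.82 and 11.4 FPKM on chromatin. In EpiLC the same fractions held 258, 263 and 226 FPKM and 39.4, 41.3 and 38.7 FPKM. The cytoplasm was above chromatin in every library of both states, and the nESC chromatin library numbered 3 was more than 2-fold above its partners. Nucleoplasm lay in between, at 11.6 to 12.8 FPKM in nESC and 93.1 to 102 FPKM in EpiLC.

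Lin28b (ENSMUSG00000063804, chr10:45376620-45486395, − strand) was the least abundant of the 8 genes in nESC total RNA, at 1.05, 1.03 and 1.19 FPKM, and reached 18.02, 18.22 and 18.42 FPKM in EpiLC. On nESC chromatin it was at 1.26, 1.85 and 3.14 FPKM and in nucleoplasm at 1.57, 1.57 and 1.68 FPKM, whereas the cytoplasm held 0.21, 0.13 and 0.16 FPKM, about 11 to 14 fragments per library. In EpiLC, chromatin held 37.4, 28.8 and 26.7 FPKM, nucleoplasm 22.4, 22.4 and 32.2 FPKM, and cytoplasm 1.82, 1.42 and 3.34 FPKM. Both nuclear fractions exceeded the cytoplasm in all libraries, and the EpiLC cytoplasm library numbered 3 was the highest of its group. Chromatin and nucleoplasm overlapped in both states.

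**Figure D1:**
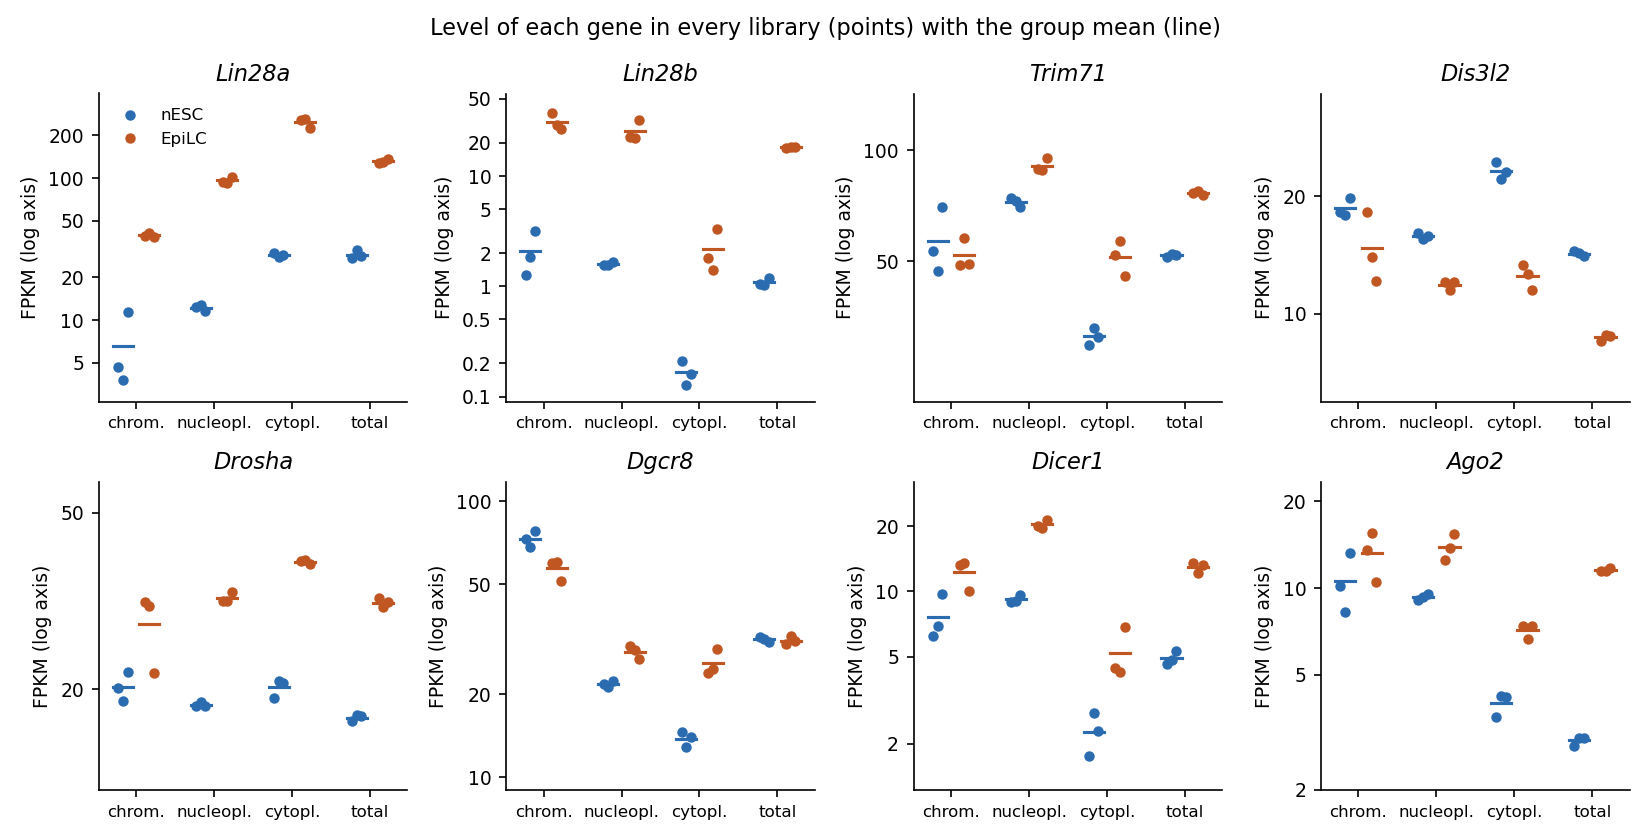
FPKM (log axis, its own range in each panel) of the 8 genes by RNA fraction; each point is 1 library and each line a group mean (n = 3), blue for nESC and orange for EpiLC. Lin28a is highest in EpiLC cytoplasm (226 to 263 FPKM), Lin28b is lowest in nESC cytoplasm (0.13 to 0.21 FPKM), and Dgcr8 is highest on chromatin in both states.

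Fractions were compared within each state with limma on log2(FPKM + 0.5), and a gene was called when its Benjamini-Hochberg adjusted p was under 0.05 and its fold at least 2. Folds of low genes are understated on this scale. In nESC chromatin versus cytoplasm, 4 members were called higher on chromatin and 1 lower, where 61.5% of 12592 genes were called, 31.8% higher and 29.7% lower. Members had a median log2 fold of 1.05, against 0.04 over all genes. In EpiLC, 3 were called higher and 1 lower, where 57.6% of 12834 genes were called, 29.1% higher and 28.4% lower, and the medians were 0.52 and 0.00. With more than 1 in 2 genes of the table called, these counts do not set the members apart.

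Lin28a was lower on chromatin than in cytoplasm by a log2 fold of -2.19 (SE 0.27, adjusted p 4.1e-06) in nESC and -2.63 (SE 0.08, adjusted p 7.1e-11) in EpiLC, lower in 3 of 3 libraries each. Leaving out 1 library at a time kept these folds between -2.63 and -1.90 and between -2.70 and -2.59. Scaling every library to one FPKM sum ended both calls, with -0.30 (adjusted p 0.34) in nESC and -0.80, under 2-fold, in EpiLC. Lin28b went the other way, with 1.89 (SE 0.21, adjusted p 1.5e-06) in nESC and 3.60 (SE 0.23, adjusted p 1.2e-08) in EpiLC. Without the 2 EpiLC libraries numbered 3, the EpiLC fold of Lin28b was 3.98. Without the nESC chromatin library numbered 3, the nESC folds of Lin28b (1.61), Dicer1 (1.37) and Ago2 (1.11) were still called. In nucleoplasm versus cytoplasm Lin28a was at -1.21 (SE 0.27) and -1.36 (SE 0.08), and Lin28b at 1.66 (SE 0.21) and 3.32 (SE 0.23), all 4 called. Scaling to one sum turned nESC Lin28a there to 0.026 and left EpiLC Lin28a at -0.33, so neither was called, and the length and GC correction left the nESC value at -0.99, under 2-fold. In the latter comparison 4 members were called higher and 1 lower in nESC, where 39.9% of genes were called (20.5% higher, 19.5% lower), and 2 were higher and 1 lower in EpiLC, where 39.2% were called (20.1% higher, 19.1% lower). Between the 2 nuclear compartments, EpiLC Lin28a was lower on chromatin than in nucleoplasm (-1.27, SE 0.08), while the nESC fold of -0.98 (SE 0.27) missed 2-fold and became -1.43, a call, without the nESC chromatin library numbered 3. The EpiLC call was lost with libraries scaled to one sum (-0.47).

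These directions are relative to the scale of the deposited values. That scaling moved the median of all genes in nESC chromatin versus cytoplasm from 0.04 to 1.85 and in EpiLC from 0.00 to 1.69, and the share of higher genes among those called from 51.7% to 91.8% and from 50.6% to 92.7%. Nucleoplasm versus cytoplasm moved likewise, from 51.3% to 98.0% higher in nESC and from 51.2% to 95.9% in EpiLC. Set against the median of all genes, Lin28a in nESC chromatin versus cytoplasm stood at -2.23 as deposited and -2.15 after it, and Lin28b at 1.85 and 1.12. A correction for exonic length and GC content across genes turned the nESC Lin28b fold to -0.19 in chromatin versus cytoplasm and left 0.11 in nucleoplasm versus cytoplasm, so that call holds only without the correction.

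The difference in Lin28b between the states needs its scale. As a test of the difference itself, EpiLC minus nESC in chromatin versus cytoplasm gave 1.80 (SE 0.31, adjusted p 0.00014) and in nucleoplasm versus cytoplasm 1.73 (SE 0.31, adjusted p 0.00066), on libraries centred on their medians. Among the members, the difference between the states in chromatin versus cytoplasm was called for Lin28b and Dgcr8, in opposite directions. There 9.65% of 11704 genes were called (5.25% higher and 4.41% lower in EpiLC). In nucleoplasm versus cytoplasm it was called for Lin28b alone, where 2.55% of genes were called (1.07% higher, 1.48% lower). The nESC cytoplasm level of Lin28b lies below the added 0.5. With 0.1 added, its differences were 0.98 and 0.93, and with 0.01 added (chosen after seeing the data) 0.50 and 0.46, neither of them called. The plain ratio of mean FPKM, chromatin over cytoplasm, was 12.6 in nESC and 14.1 in EpiLC, and nucleoplasm over cytoplasm 9.67 and 11.7. Without the EpiLC libraries numbered 3 the EpiLC ratios were 20.5 and 15.9, and the differences with 0.5 added were 2.15 and 2.00. With all libraries the call on Lin28b depends on the pseudocount, and the ratios depend on the cytoplasm library numbered 3.

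**Figure D2:**
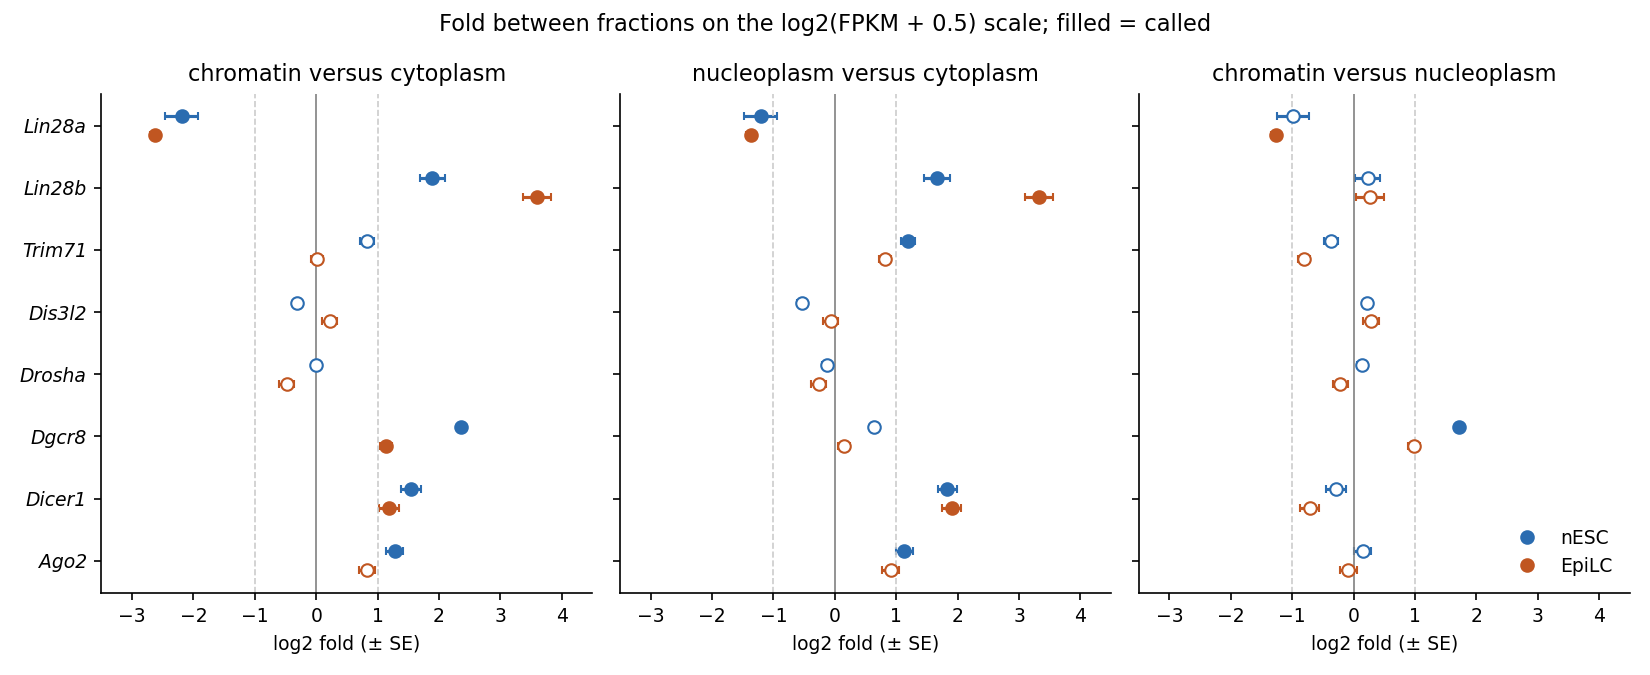
Log2 fold (± SE, n = 3 libraries per group) between pairs of RNA fractions for the 8 genes, on the log2(FPKM + 0.5) scale; filled points were called by limma, dashed lines mark 2-fold. Lin28a lies left of 0 and Lin28b right of 0 in the comparisons with cytoplasm, and Dgcr8 in nESC (1.72) is the one filled point to the right in chromatin versus nucleoplasm.

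The balance of the paralogues was followed as Lin28b over Lin28a within each library. In total RNA it was 0.038, 0.033 and 0.042 in nESC and 0.142, 0.140 and 0.135 in EpiLC, with no overlap. The EpiLC ratio was 3.69-fold higher (log2 1.88), for which an exact two-sided permutation test gives p = 0.1, the smallest value that 3 against 3 libraries allow. On chromatin the ratios were 0.269, 0.485 and 0.277 in nESC and 0.949, 0.698 and 0.690 in EpiLC, so Lin28b approached Lin28a there. In cytoplasm they were 0.0070, 0.0046 and 0.0056 in nESC and 0.0070, 0.0054 and 0.0148 in EpiLC, and these groups overlapped. Lin28a thus exceeded Lin28b 143-fold to 216-fold in nESC cytoplasm and 67.8-fold to 186-fold in EpiLC cytoplasm, against 1.05-fold to 1.45-fold on EpiLC chromatin.

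**Figure D3:**
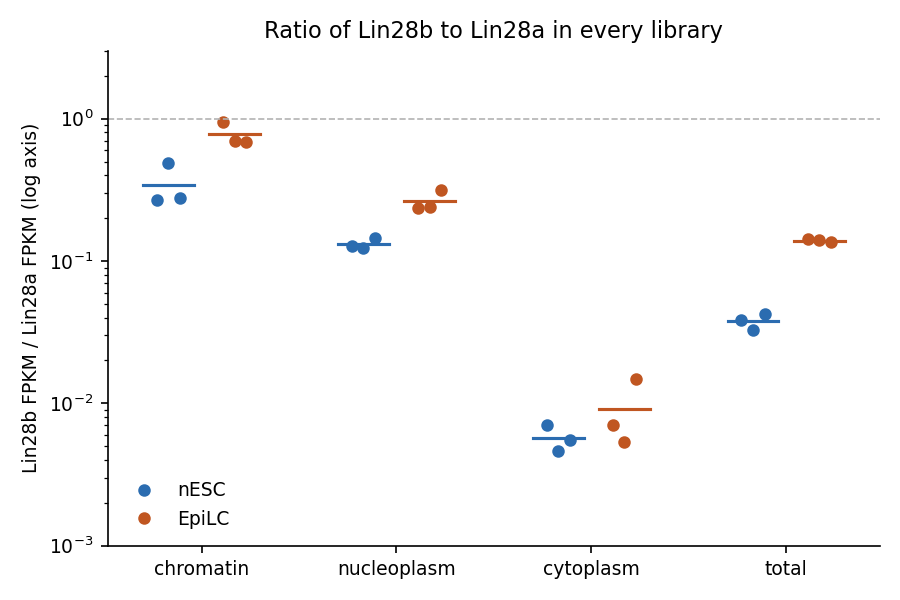
Lin28b FPKM divided by Lin28a FPKM (log axis) in each library, by RNA fraction and state; lines are group means (n = 3) and the dashed line marks equal levels. The ratio falls from chromatin to cytoplasm in both states, and in total RNA the EpiLC libraries (0.135 to 0.142) lie above the nESC ones (0.033 to 0.042).

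Trim71 (ENSMUSG00000079259, chr9:114507133-114564369, − strand) was abundant in both states, at 51.2, 52.3 and 52.1 FPKM in nESC total RNA and 76.5, 77.4 and 75.6 FPKM in EpiLC. By mean, nucleoplasm was its highest fraction, with 74.4, 72.8 and 70.0 FPKM in nESC and 89.2, 88.2 and 95.0 FPKM in EpiLC. The cytoplasm held 29.7, 33.1 and 31.2 FPKM and 52.1, 56.6 and 45.5 FPKM. Nucleoplasm exceeded cytoplasm in all libraries, with a called log2 fold of 1.20 (SE 0.11, adjusted p 5.4e-07) in nESC and 0.82 (SE 0.10) in EpiLC, under 2-fold. The nESC call was lost with libraries centred on their medians (0.97) and after the length and GC correction (0.98). Chromatin versus cytoplasm was 0.83 (SE 0.11) in nESC and 0.02 (SE 0.10) in EpiLC, and the difference between the states was -0.72 (SE 0.15, adjusted p 0.0010), under 2-fold. Scaled to one sum, Trim71 was called higher on chromatin than in cytoplasm in both states (2.78 and 1.84). Trim71 and the opposite-strand gene C130032M10Rik overlap, and the latter was at 10.3 FPKM on nESC chromatin.

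Dis3l2 (ENSMUSG00000053333, chr1:86703808-87050095, + strand), which degrades uridylated let-7 precursors, was the member whose EpiLC libraries lay lower than the nESC ones in total RNA. It stood at 14.5, 14.3 and 14.0 FPKM in nESC and 8.49, 8.81 and 8.78 FPKM in EpiLC. In cytoplasm it was at 24.5, 22.1 and 23.1 FPKM in nESC and 13.3, 12.6 and 11.5 FPKM in EpiLC, and on chromatin at 17.9 to 19.8 FPKM and 12.2 to 18.2 FPKM, where the states overlapped. As deposited, none of its folds between fractions reached 2-fold, with -0.31 (SE 0.07) for nESC and 0.22 (SE 0.13) for EpiLC in chromatin versus cytoplasm. The difference between the states was 0.63 (SE 0.14, adjusted p 0.0015), also under 2-fold. Both folds depend on processing. After the length and GC correction they were -2.52 and -1.76, with -2.17 and -1.79 in nucleoplasm versus cytoplasm, and scaled to one sum they were 1.61 and 2.00. The same-strand intronic transcript Gm29055 lies inside Dis3l2 and was at 40.0 and 43.8 FPKM on chromatin of nESC and EpiLC, and the assignment of reads between them is uncertain.

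The messages of the Microprocessor subunits differed in their folds between fractions. As deposited, Drosha (ENSMUSG00000022191, chr15:12824815-12935291, + strand) had similar FPKM on chromatin and in cytoplasm of nESC. It held 20.1, 18.8 and 21.9 FPKM on nESC chromatin and 19.2, 20.8 and 20.7 FPKM in cytoplasm, a log2 fold of 0.00 (SE 0.07). In EpiLC it was at 31.5, 30.8 and 21.8 FPKM on chromatin and 39.0, 39.1 and 38.3 FPKM in cytoplasm, a fold of -0.48 (SE 0.12), and -0.32 without the libraries numbered 3. No Drosha comparison between fractions was called as deposited, while scaling to one sum gave called folds of chromatin versus cytoplasm of 1.93 in nESC and 1.33 in EpiLC, and of nucleoplasm versus cytoplasm of 1.10 in nESC. In total RNA its nESC libraries held 16.9, 17.5 and 17.4 FPKM and its EpiLC libraries 32.1, 30.6 and 31.4 FPKM.

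Dgcr8 (ENSMUSG00000022718, chr16:18253948-18289246, − strand) was a chromatin-rich message. It held 73.0, 68.0 and 78.2 FPKM on nESC chromatin, 21.8, 21.2 and 22.4 FPKM in nucleoplasm and 14.6, 12.8 and 14.0 FPKM in cytoplasm. In EpiLC the same fractions held 59.9, 60.1 and 51.5 FPKM, 29.9, 28.9 and 26.8 FPKM, and 23.8, 24.8 and 29.1 FPKM. Chromatin was above every other library of its state. The log2 fold of chromatin versus cytoplasm was 2.36 (SE 0.07, adjusted p 5.0e-12) in nESC and 1.13 (SE 0.10, adjusted p 2.2e-07) in EpiLC.

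Its excess on chromatin was smaller in EpiLC by -1.14 (SE 0.11, adjusted p 3.1e-07), and by -1.01 without the libraries numbered 3. Leaving out 1 library at a time kept this difference between -1.18 and -1.07. Dgcr8 was also the only member called higher on chromatin than in nucleoplasm in nESC (1.72, SE 0.07), where 34.7% of genes were called (17.4% higher, 17.3% lower). In EpiLC, where 32.7% were called (16.0% higher, 16.7% lower), it was at 0.99 (SE 0.10), just under 2-fold, and at 1.06, a call, without the library numbered 3. The EpiLC call in chromatin versus cytoplasm was lost with libraries centred on their medians (0.93) and after the length and GC correction (0.67). Dgcr8 total RNA overlapped between the states, at 32.1, 31.6 and 31.0 FPKM in nESC and 30.3, 32.4 and 31.1 FPKM in EpiLC.

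The Microprocessor is known to cut hairpins in the Dgcr8 message itself, one of which is annotated as miR-1306. In the transcript ENSMUST00000009321 this hairpin of 79 bases (chr16:18284239-18284317, − strand, GRCm38) lies in exon 2 of 14, before the stop codon. Its sequence is printed to show a hairpin that the Dgcr8 message carries.
Mir1306: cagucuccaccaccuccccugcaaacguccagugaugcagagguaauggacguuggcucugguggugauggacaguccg

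Gene-level FPKM do not separate cut from intact Dgcr8 RNA. Dgcr8 also overlaps the opposite-strand gene Trmt2a, which was at 37.2 FPKM on nESC chromatin and 24.1 FPKM in cytoplasm. The library kit keeps strand, but its use in counting is not given in the sources used here.

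As deposited, the message of Dicer1 (ENSMUSG00000041415, chr12:104687742-104751952, − strand) was lowest in the cytoplasm fraction. It held 6.21, 6.91 and 9.71 FPKM on nESC chromatin, 8.99, 9.02 and 9.65 FPKM in nucleoplasm and 1.74, 2.75 and 2.28 FPKM in cytoplasm. In EpiLC these fractions held 13.2, 13.5 and 10.1 FPKM, 20.1, 19.7 and 21.3 FPKM, and 4.43, 4.28 and 6.85 FPKM. No cytoplasm library reached the lowest nuclear library of its state. Chromatin versus cytoplasm was 1.55 (SE 0.16, adjusted p 8.5e-07) in nESC and 1.19 (SE 0.16, adjusted p 1.5e-05) in EpiLC, and nucleoplasm versus cytoplasm 1.83 (SE 0.16) and 1.90 (SE 0.16), all called. The length and GC correction turned both chromatin folds, to -0.32 and -0.33, and left the nucleoplasm folds at 0.74 and 0.87, under 2-fold, and centring took the EpiLC chromatin fold to 0.99. Dicer1 total RNA was at 4.64, 4.86 and 5.31 FPKM in nESC and at 13.5, 12.1 and 13.2 FPKM in EpiLC, with no overlap.

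Ago2 (ENSMUSG00000036698, chr15:73095844-73184935, − strand), the Argonaute with slicer activity, was at 2.84, 3.03 and 3.03 FPKM in nESC total RNA and 11.5, 11.5 and 11.8 FPKM in EpiLC. Its fractions differed less between the states than total RNA did. In nESC it held 10.2, 8.27 and 13.3 FPKM on chromatin, 9.12, 9.29 and 9.54 FPKM in nucleoplasm and 3.58, 4.21 and 4.20 FPKM in cytoplasm. In EpiLC these were 13.6, 15.6 and 10.5 FPKM, 12.5, 13.8 and 15.4 FPKM, and 7.39, 6.67 and 7.40 FPKM. All nuclear libraries exceeded the cytoplasm ones. Chromatin versus cytoplasm was called in nESC (1.28, SE 0.14, adjusted p 1.3e-06) and was under 2-fold in EpiLC (0.82, SE 0.13), and the difference between the states of -0.36 (SE 0.19, adjusted p 0.14) was not called. Nucleoplasm versus cytoplasm was called in nESC as well (1.13, SE 0.14), though not with libraries centred on their medians (0.90) or after the length and GC correction (0.31). That correction turned the chromatin folds to -0.16 and -0.30, and scaling to one sum gave a called EpiLC fold of 2.58. Ago2 overlaps the opposite-strand gene Chrac1, which was at 61.5 FPKM in nESC cytoplasm.

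Levels in the 2 states come from tables normalized separately, so they are given side by side with no test. On log2(FPKM + 0.5) in total RNA, EpiLC exceeded nESC by 2-fold or more for 4 of 8 members and lay as far below it for none, where 13.4% of 11704 genes were higher and 10.4% lower by that much. EpiLC minus nESC was 3.56 for Lin28b, 2.16 for Lin28a, 1.80 for Ago2 and 1.30 for Dicer1, followed by 0.84 for Drosha, 0.56 for Trim71, -0.01 for Dgcr8 and -0.68 for Dis3l2. The median gene moved by -0.01 as deposited and by 0.20 when libraries were scaled to one sum, under which Drosha reached 1.06 and Dgcr8 0.21. As plain ratios of mean FPKM, Lin28b was 16.7-fold, Lin28a 4.53-fold, Ago2 3.91-fold and Dicer1 2.62-fold higher in EpiLC.

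The values differed between fractions. Lin28a was 8.64-fold higher in EpiLC in cytoplasm (28.8 ± 1.04 against 249 ± 20.0 FPKM, SD, n = 3), 7.91-fold in nucleoplasm and 6.01-fold on chromatin. Without the nESC chromatin library numbered 3 the chromatin value was 9.37-fold, above the others, so no order of the fractions is read from them. Lin28b was 13.2-fold to 16.7-fold higher across the 4 fractions. Without the EpiLC libraries numbered 3 its cytoplasm value was 9.75-fold. Without the nESC chromatin library numbered 3 its chromatin value was 19.9-fold, so single libraries set this range. Ago2 was 1.25-fold higher on chromatin, where the libraries overlapped, and 1.49-fold in nucleoplasm. Dgcr8 was 1.87-fold higher in cytoplasm and 0.782 times the nESC level on chromatin, with no overlap in either. On chromatin, 2 of 8 members were 2-fold or more above nESC (background 8.12%) and 0 as far below (7.25%), in nucleoplasm 3 (10.9%) and 0 (9.71%), and in cytoplasm 3 (10.4%) and 0 (8.17%).

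**Figure D4:**
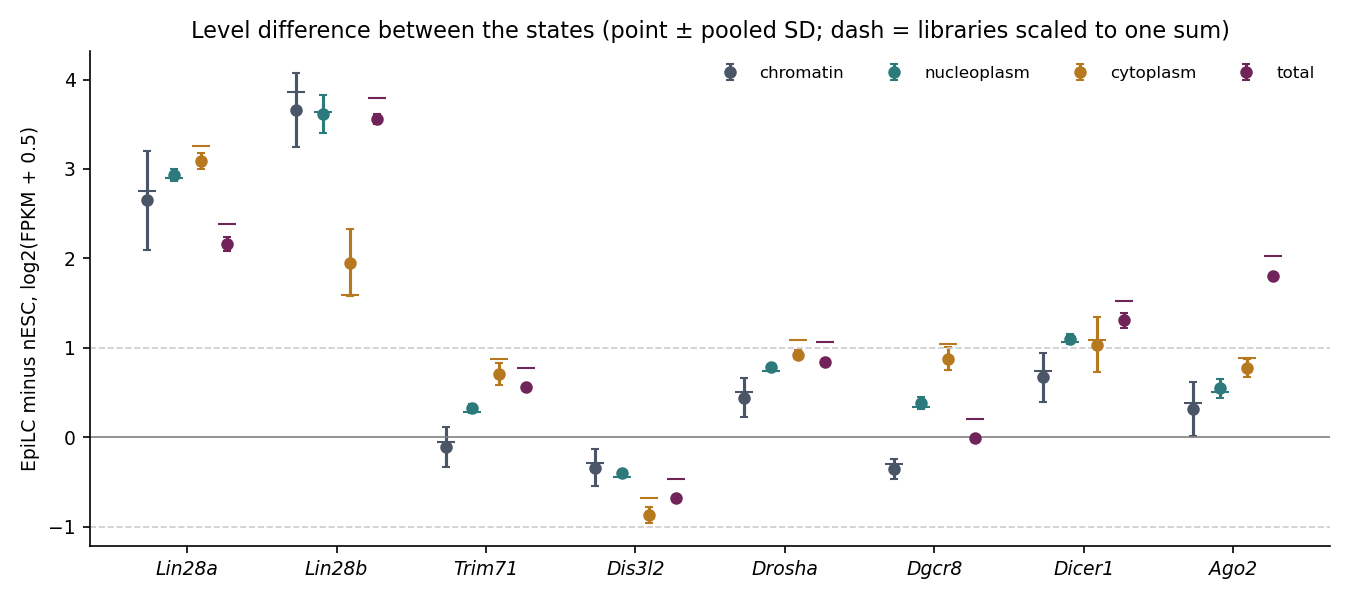
EpiLC minus nESC level on the log2(FPKM + 0.5) scale for the 8 genes in each RNA fraction; points carry the pooled SD of the 2 groups (n = 3 each), and dashes show the value with each library scaled to one FPKM sum. Lin28a and Lin28b lie above 1 in all fractions, Dis3l2 lies below 0, and Ago2 is higher in total RNA (1.80) than in any fraction.

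Among the members in total RNA, per kilobase, Trim71, Dgcr8 and Lin28a led in nESC, and Lin28a, Trim71, and then Drosha and Dgcr8 together in EpiLC. The nESC libraries of Dgcr8 (31.0 to 32.1 FPKM) and Lin28a (27.5 to 31.2 FPKM) overlapped, as did the EpiLC libraries of Drosha (30.6 to 32.1 FPKM) and Dgcr8 (30.3 to 32.4 FPKM). Lin28b moved from the percentile range 16.3 to 17.4 of 13722 genes in nESC to 66.7 to 67.1 in EpiLC, and Lin28a from 74.2 to 76.7 to 94.6 to 95.1.

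The rest of the pathway was read from lists of genes other than the members. Their folds between fractions are given as deposited only. Alternatives of scaling and of length and GC turned folds of several members, and were not read for the lists. Scaling to one sum moved the nESC median of all genes in chromatin versus cytoplasm from 0.04 to 1.85. Over all genes tested, 31.8% were called higher and 29.7% lower on chromatin than in cytoplasm in nESC (median 0.04), and 29.1% and 28.4% in EpiLC (median 0.00), and list counts are to be read against these shares. Of 18 Microprocessor cofactors tested, 6 were higher and 3 lower by a call on chromatin than in cytoplasm in nESC (median log2 fold 0.41), and 2 higher and 5 lower in EpiLC (median -0.24). Khsrp, a let-7 hairpin binding protein, was at -1.75 (SE 0.09) and -1.88 (SE 0.10) in nESC and EpiLC. Of 10 export and Dicer cofactors, 2 were higher and 4 lower in nESC (median -0.82), and 2 and 6 in EpiLC (median -1.38). Ran, the GTPase of nuclear export, was at -2.58 (SE 0.07) and -2.93 (SE 0.10), and Fmr1, an RNA-binding translational regulator, at 3.36 (SE 0.19) and 2.60 (SE 0.27).

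Among 19 Argonaute and silencing effectors, 11 were higher and 1 lower on nESC chromatin (median 1.32), and 8 and 0 in EpiLC (median 0.92). Tnrc6a, a GW182 scaffold that binds Argonaute, was at 3.42 (SE 0.13) and 3.43 (SE 0.25), and the exonuclease Xrn1 at 3.55 (SE 0.09) and 3.41 (SE 0.19). Mov10, an RNA helicase, was the one gene of this list called lower in nESC (-1.48, SE 0.08). Among 13 genes of precursor tailing and decay, 7 were higher and 0 lower in nESC (median 1.17), and 5 and 1 in EpiLC (median 0.86). Tut4 and Tut7, the uridylyl transferases that tail let-7 precursors, were both higher on chromatin than in cytoplasm as deposited. Tut4 was at 3.66 (SE 0.17) and 3.95 (SE 0.28) and Tut7 at 2.20 (SE 0.13) and 1.92 (SE 0.18).

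The largest difference between the states among these lists belonged to Dis3, the nuclease of the exosome and a relative of Dis3l2. Its cytoplasm libraries held 1.00, 0.97 and 1.07 FPKM in nESC and 17.2, 14.1 and 21.8 FPKM in EpiLC, while chromatin held 12.2, 16.0 and 18.4 FPKM and 28.4, 23.7 and 19.3 FPKM. Chromatin versus cytoplasm was 3.39 (SE 0.12) in nESC and 0.42 (SE 0.16) in EpiLC, and the difference of -2.87 (SE 0.19, adjusted p 1.0e-09) was called. Dis3 total RNA was 26.4 ± 0.56 FPKM in nESC and 40.3 ± 1.41 FPKM in EpiLC (SD, n = 3). Its nucleoplasm was at 15.8 ± 0.93 and 48.5 ± 2.74 FPKM. In nESC every total library of Dis3 was above all of its fraction libraries, as it was for 1098 of 12592 genes (8.72%).

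Messages known as let-7 targets were mixed in their folds between fractions and in level. Of 22 tested in nESC, 7 were higher and 4 lower on chromatin than in cytoplasm (median 0.45), and of 25 in EpiLC, 4 and 5 (median -0.12). Hmga1, an architectural chromatin protein, was at -4.12 (SE 0.09) and -3.35 (SE 0.12), and its relative Hmga2 at 2.09 (SE 0.20) and 2.42 (SE 0.16). In total RNA, 5 of 22 stood 2-fold or more above nESC in EpiLC and 1 as far below (median difference 0.29). Over all genes compared, 13.4% were that much higher and 10.4% lower. The nuclear receptor Nr6a1 was at 5.17 ± 0.97 FPKM in nESC and 24.4 ± 0.71 FPKM in EpiLC (SD, n = 3). Hmga1 was at 128 ± 6.93 and 355 ± 8.73 FPKM. Hmga2 was at 2.91 ± 0.11 and 2.49 ± 0.14 FPKM, a log2 difference of -0.19 that was -0.0019 with libraries scaled to one sum.

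Over all 11704 genes compared in total RNA, 13.4% were 2-fold or more higher in EpiLC and 10.4% as far lower. Of the lists, 3 of 18 Microprocessor cofactors, 1 of 10 export and Dicer cofactors, 4 of 19 silencing effectors and 1 of 13 tailing and decay genes reached 2-fold above nESC. Counts this small do not set the lists apart from those shares. One silencing effector, Mov10 (25.8 ± 1.46 and 8.55 ± 0.31 FPKM, SD, n = 3), and 1 tailing and decay gene, Xrn2 (110 ± 2.61 and 49.8 ± 1.06 FPKM), were at least 2-fold lower. Tut4 was at 6.27 ± 0.13 and 16.7 ± 1.75 FPKM and Tnrc6a at 17.5 ± 1.78 and 46.9 ± 2.50 FPKM. Scaled to one sum, 6 silencing effectors and 2 tailing and decay genes were that much higher, and 1 and 0 lower.

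**Figure D5:**
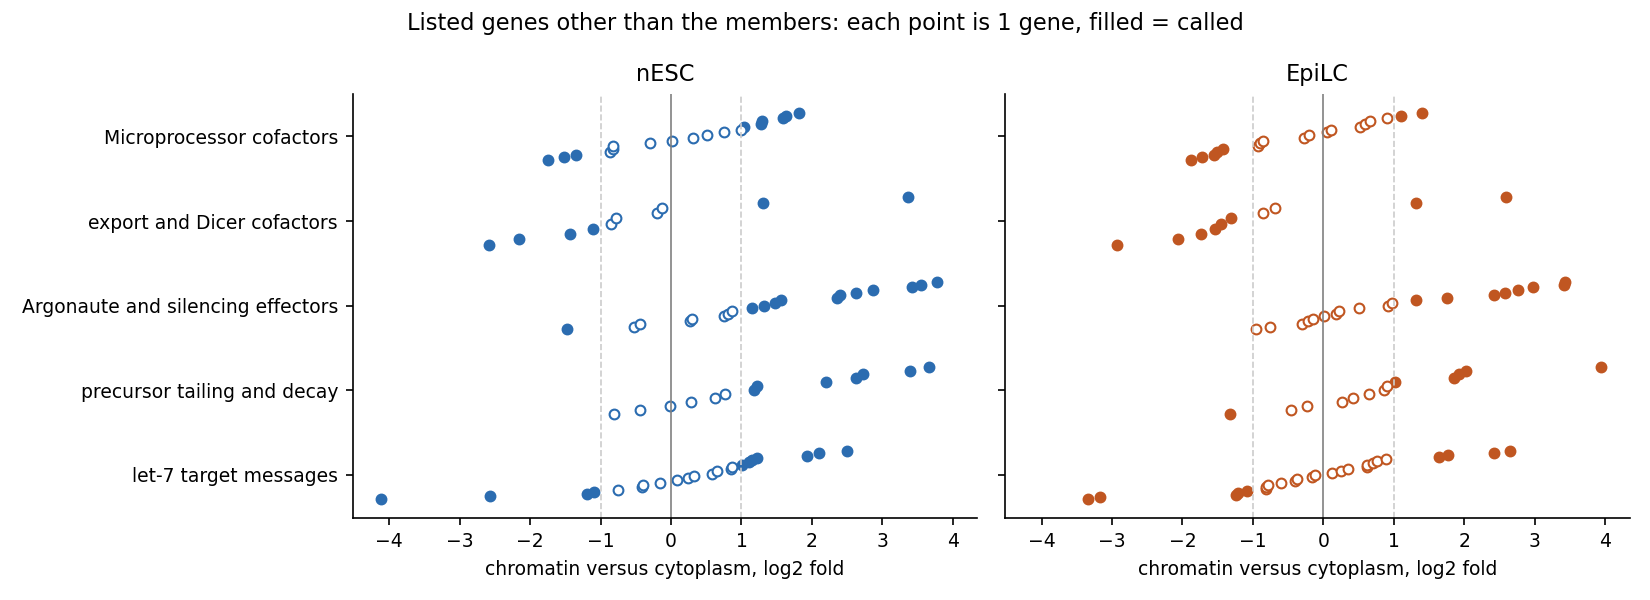
Log2 fold of chromatin versus cytoplasm for the genes of 5 pathway lists without the 8 members, in nESC (left) and EpiLC (right); each point is 1 gene, filled when called by limma, and dashed lines mark 2-fold. As deposited, silencing effectors and tailing and decay genes lie mostly right of 0 and export and Dicer cofactors mostly left. Their medians are 1.32, 1.17 and -0.82 in nESC, and other scalings are not shown.

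Of the transcripts that host microRNAs, Mir17hg, the host of the miR-17 to miR-92a cluster, had a log2 fold of 6.94 (SE 0.15) in nESC and 5.15 (SE 0.11) in EpiLC for chromatin versus cytoplasm, with 182, 166 and 110 FPKM on nESC chromatin. Huwe1, whose introns hold let-7 family hairpins, was at 2.95 (SE 0.17) and 2.04 (SE 0.30), and Wdr82, the host of let-7g, at -0.70 (SE 0.06) and -0.96 (SE 0.10). Of 6 messages described as Trim71 targets, 2 of 4 tested were higher on chromatin in nESC and 3 of 5 in EpiLC, with Mbnl1, a splicing regulator, at 4.63 (SE 0.18) and 3.47 (SE 0.27). None of 4 differed 2-fold in total RNA, where 13.4% of all genes compared were higher and 10.4% lower by that much.

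The genes with the most similar pattern over the 8 group means were found by Pearson r of log2(FPKM + 0.5), each library centred on its median, among 9794 genes. The points share libraries, so r is a description. Lin28a was nearest to Cdkn1c (r = 0.992), Lin28b to Usp25 (0.992) and Skil (0.989), Dgcr8 to Nfkbiz (0.982), Dicer1 to Cbll1 (0.990), and Ago2 to Taf4 (0.989) and Eif4g3 (0.982). Among the members themselves, Lin28b and Dicer1 (0.897), Lin28a and Drosha (0.892) and Trim71 and Dicer1 (0.875) ran most alike, and Trim71 and Dis3l2 (-0.844) most opposed. Lin28a and Lin28b had an r of 0.406.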

How the data were processed

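RNA-seq FPKM were analysed for 24 libraries, 3 in each of 8 groups taken from the labels. The submitters' processing notes name TopHat2, Cuffnorm and mm10 (GRCm38) for the FPKM that the authors deposited. Of versions, annotation, library normalization and use of strand, nothing is stated in the labels or file headers. Each state has its own table of 12 libraries, normalized on its own. Ensembl identifiers were matched to GENCODE M21 (29586 of 29759 matched). Genes averaging 1 FPKM or more were tested with limma 3.58.1 (R 4.3.3) on log2(FPKM + 0.5), all 12 libraries of a state in one fit. Differences between the states used all 24 libraries, each centred on its median. Benjamini-Hochberg adjustment ran over all genes tested. The fit was tested on simulated data. Fragments behind a value were estimated from steps between low values, of which 90.6% to 95.6% lay within 0.1 of a whole number. They bound counting error only.

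The members and gene lists were chosen with earlier results of these data known. Named genes are all members and, per list, up to 4 genes by fold in each state and up to 4 by level difference, with the 3 genes nearest in pattern to each member. Of these, the text gives those it needs, and a few are not reported here. RefSeq (GRCm38.p6) gave microRNA sequences. Of the listed genes, 4 were matched through synonyms, and microRNA genes of the lists were not analysed here. Alternatives covered pseudocount, filter, scaling, trend, replicate block, length and GC, groups fitted and each library left out.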

Additional observations from a re-analysis of the deposited data

Results flagged for a closer look

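For 2 of the 8 genes the difference between the states in a fraction fold was called (adjusted p under 0.05 by limma and at least 2-fold). Over all 11704 genes tested, 9.65% were called in chromatin versus cytoplasm and 2.55% in nucleoplasm versus cytoplasm. Trim71 (-0.72), Dis3l2 (0.63) and Drosha (-0.39) also had an adjusted p under 0.05 in chromatin versus cytoplasm, but were under 2-fold. So were Dis3l2 (0.54) and Dgcr8 (-0.43) in nucleoplasm versus cytoplasm. Lin28b had a larger excess of chromatin over cytoplasm in EpiLC by 1.80 on the log2(FPKM + 0.5) scale (adjusted p 0.00014), and of nucleoplasm over cytoplasm by 1.73 (adjusted p 0.00066). With 0.1 in place of 0.5 added, these were 0.98 and 0.93, under 2-fold, and the nESC cytoplasm rests on about 11 to 14 fragments per library. Dgcr8 had a smaller excess of chromatin over cytoplasm in EpiLC, by -1.14 (adjusted p 3.1e-07). Dgcr8 differed in both fractions, with 73.1 ± 5.12 against 57.1 ± 4.87 FPKM on chromatin and 13.8 ± 0.90 against 25.9 ± 2.84 FPKM in cytoplasm for nESC against EpiLC (SD, n = 3).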

How the results depend on the processing

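Alternatives covered the counts of called genes, the count of members 2-fold higher in EpiLC total RNA and the Lin28b to Lin28a ratio. In 156 of 162 alternative values, counts stayed within 1.5 times or the ratio kept its direction. No limit on size was set for the ratio, whose log2 difference ran from 1.40 to 1.97. The length and GC correction left 3346 nESC and 3287 EpiLC genes in nucleoplasm versus cytoplasm, against 5028 and 5035. For the differences between the states, no filter gave 2127 and 597 genes and a minimum mean of 5 FPKM 666 and 176, against 1130 and 298, since more or fewer genes were tested. Member folds kept direction and call in 951 of 1024 alternative values. These leave out chromatin versus nucleoplasm for Drosha, Dis3l2, Lin28b and Ago2, none of them called as deposited. Scaled to one sum, EpiLC Lin28b (1.07) and Dis3l2 (1.08) passed 2-fold in that comparison. Without centring, higher genes made up 41.2% and 28.1% of the called differences between the states, against 54.3% and 41.9%, and scaling to one sum gave 58.6% and 52.5%.

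Scaling to one sum turned Dis3l2 to 1.61 and 0.69 in the nESC comparisons of chromatin and nucleoplasm with cytoplasm, Drosha to 1.10 and Lin28a to 0.026 in nESC nucleoplasm versus cytoplasm, Drosha to 1.33 and 0.75 in the EpiLC comparisons with cytoplasm, Dis3l2 to 0.92 in EpiLC nucleoplasm versus cytoplasm, and in chromatin versus nucleoplasm Dicer1 to 0.39 (nESC) and 0.065 (EpiLC) and Trim71 to 0.33 (nESC). It also turned EpiLC Drosha (0.58) and Ago2 (0.70) in chromatin versus nucleoplasm, which are outside the counted values. This scaling moves all genes of a library together. Centring turned nESC Drosha (-0.26) and EpiLC Trim71 (-0.18) in chromatin versus cytoplasm and EpiLC Dgcr8 (-0.040) in nucleoplasm versus cytoplasm.

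The length and GC correction turned nESC Drosha (-0.016), Ago2 (-0.16), Dicer1 (-0.32) and Lin28b (-0.19) and EpiLC Ago2 (-0.30), Dicer1 (-0.33), Dis3l2 (-1.76) and Trim71 (-0.35) in chromatin versus cytoplasm, EpiLC Dgcr8 in nucleoplasm versus cytoplasm (-0.19), and the difference of Drosha between the states in nucleoplasm versus cytoplasm (0.017), which was 0.0091 with no filter. The cause was not tested.

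Without the EpiLC chromatin and cytoplasm libraries numbered 3, an alternative chosen after seeing the data, Trim71 in EpiLC chromatin versus cytoplasm was -0.033 and the Dicer1 difference between the states 0.031. Leaving out 1 library at a time gave -0.053 to 0.052 for Drosha in nESC and -0.068 to 0.087 for Trim71 in EpiLC chromatin versus cytoplasm, and -0.62 to 0.10 for the Lin28a difference between the states.

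Same-numbered libraries showed no strong shared deviation: their deviations correlated at 0.024 on average in nESC (-0.149 to 0.221) and -0.034 in EpiLC (-0.291 to 0.202). With 3 libraries per group this cannot tell whether they were paired. With a replicate block, 7748, 5028 and 4376 genes in nESC, 7386, 5033 and 4200 in EpiLC, and 1124 and 301 differences were called. Depth limits Lin28b in nESC cytoplasm most.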

Other observations

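Total RNA lay outside the range of the fractions for several members. In nESC every total library of Dis3l2, Drosha and Ago2 was below all 9 libraries of the 3 fractions, as it was for 1305 of 12592 genes (10.36%). In EpiLC this held for Dis3l2, and for 531 of 12834 genes (4.14%). No member had every total library above all fraction libraries, where 8.72% of genes did in nESC and 1.82% in EpiLC. Ago2 in nESC was at 2.97 ± 0.11 FPKM in total RNA against 4.0 ± 0.36 FPKM in cytoplasm, its lowest fraction (SD, n = 3). Taf4, Eif4g3 and Igf1r were the genes nearest to Ago2 in pattern. Their means were 2.02, 1.87 and 0.594 FPKM in nESC total RNA and 3.00, 2.69 and 1.23 FPKM in nESC cytoplasm. They were picked by likeness over groups that include these, so the shared order largely follows from that choice.

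Other pathway genes also had a called difference between the states in chromatin versus cytoplasm. They were Srrt (-1.14), Srsf3 (-1.07), Tarbp2 (-1.08), Igf2bp1 (-1.37), Mycn (-1.23), Cdk6 (-1.25), Mbnl1 (-1.07) and Mir17hg (-1.69), all lower in EpiLC. Over all 11704 genes tested, 9.65% were called there (5.25% higher and 4.41% lower in EpiLC). With Dis3, the lists held 2 of 18 Microprocessor cofactors, 1 of 10 export and Dicer cofactors and 1 of 13 tailing and decay genes. They also held 3 of 22 let-7 targets, 1 of 4 Trim71 targets, 1 of 3 other microRNA hosts and 0 of 19 silencing effectors. Counts this small do not set the lists apart from those shares. In nucleoplasm versus cytoplasm, Tut4 (1.10) and Prtg (1.35) were higher in EpiLC, and Dis3 (-1.91) and Mir22hg (-1.52) lower. Of all genes tested, 2.55% were called in that comparison (1.07% higher, 1.48% lower). Srrt, Srsf3, Tarbp2, Igf2bp1, Mycn and Cdk6 fall outside the rule for named genes and were chosen after their values were seen.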
